A study of Mus musculus with 14 samples.

Results

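The cytosolic ribosomal protein genes of the mouse were followed across 14 RNA-seq libraries of bone marrow cells taken after different forms of irradiation. They were chosen by name and type alone: protein-coding rows whose symbol is Rpl or Rps followed by a number, with an optional a, x, y, l or l1, together with Rplp0, Rplp1, Rplp2 and Rpsa. This rule found 83 of 55335 rows, namely 43 genes of the large (60S) subunit, 30 of the small (40S) subunit, 3 of the ribosomal stalk and 7 paralogs (Rps27l, Rpl22l1, Rpl39l, Rpl3l, Rpl10l, Rpl36al and Rpl7l1). A further 4 rows had a fitting symbol (Rps4l, Rps12l1, Rpl32l and Rpl6l) but were typed as processed pseudogenes and were left out.

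A ribosome is built from ribosomal RNA and one copy of nearly every ribosomal protein, the small subunit reading the message and the large subunit joining amino acids. The mRNAs of these proteins begin with a run of pyrimidines, the terminal oligopyrimidine or TOP motif, through which mTOR signalling sets their translation together. A few members have a second gene, a paralog, whose product can take the place of the parent protein and which is often used in a narrower set of tissues. Blood-forming cells are known for their sensitivity to the loss of single ribosomal proteins, as in Diamond-Blackfan anaemia.

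All mice carried Cdh5 Cre and Rosa26 TdTomato, so that cells with a history of Cre driven by the Cdh5 (VE-cadherin) promoter glow red, and marrow cells were sorted as Lineage-, CD45- and TdTomato+. The groups were untreated mice (4 libraries), 500 cGy of total body irradiation from caesium (TBI, 5 libraries), radioimmunotherapy with 20 µCi on an IgG (IgG RIT, 3 libraries) and the same activity on an antibody to CD45 (CD45 RIT, 2 libraries), and treated mice were harvested 8 days after treatment. Radioimmunotherapy delivers a radionuclide on an antibody. Age, sex, the radionuclide, whether Cre was inducible and how many mice gave each library are not given in the sources used here. The labels number the replicates without saying that they were separate mice, so p-values measure the spread between these samples only. TBI replicate 2 was not analysed here. The numbers in the library names run with the groups. Untreated and TBI libraries have numbers from 1 to 9, except TBI replicate 6 with 10. IgG RIT has 11 to 13, and CD45 RIT has 15 and 16. What this order stands for is not given in the sources used here. For IgG RIT and CD45 RIT, treatment and library number cannot be told apart.

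Total counts ran from 16412779 to 31077588 per library, and the ribosomal protein genes received 142144 to 1326060 of them. Genes detected numbered 20994 and 17700 in the CD45 RIT replicates, against 21660 to 26752 in the other groups. The part that this lower number plays in the differences reported here was not tested. The libraries did not look like pure endothelium: Cdh5 itself had 0 to 6 counts, and the summed level of 16 endothelial markers was 61.1 to 212 CPM (a gene's count over the scaled library size), with Cdh5, Tek, Stab2 and Sox17 at 0 in all IgG RIT libraries and also Tie1 and Emcn at 0 in both CD45 RIT libraries. Groups differed in other cell markers. The 14 stromal markers (Cxcl12, Lepr, Col1a1 and others) summed to 42780 and 69490 CPM in CD45 RIT against 498 to 9873 CPM elsewhere, with none at 0. The 14 neutrophil markers summed to 10490 to 13160 CPM in untreated libraries, 92.5 to 1248 after TBI, 610.5 to 823 after IgG RIT (Fcnb at 0) and 5.23 and 14.8 after CD45 RIT (Ngp, Fcnb and Mmp8 at 0). The 12 general haematopoietic markers summed to 2821 to 3322, 247 to 1568, 258 to 491.5 and 133 and 191.5 CPM in the same order, with Cd34 at 0 in CD45 RIT. The erythroid markers (14 of 15 in the table, with Ahsp at 0 throughout) summed to 11920 to 18960 CPM in untreated, 33340 to 192100 in TBI, 146200 to 155800 in IgG RIT, and 198200 and 48120 in CD45 RIT. Haemoglobin genes took 0.645 to 1.24% of counts in untreated libraries, 2.05 to 3.66% in 4 TBI libraries and 15.7% in TBI replicate 6, 11.7 to 12.2% after IgG RIT, and 17.8% and 4.54% after CD45 RIT. The CD45 RIT replicates correlated at 0.722 across genes (log scale), every other replicate pair at 0.940 to 0.990. These values stand beside each difference reported here, and the part that a change in cell make-up plays in them was not tested. In such bulk libraries, fewer cells of a type and less RNA per cell cannot be told apart.

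To show what the genes share in sequence, and how paralogs differ from their parents, 60 bases around the transcription start (30 on each side) are given for 3 paralog pairs and for Rpl7a, 1 of the genes that fell most. They are from RefSeq on GRCm38.p6, on the gene's strand, with the longest pyrimidine run, or runs where they tie, in capitals.

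Rps27 (chr3:90213619-90213678, minus strand): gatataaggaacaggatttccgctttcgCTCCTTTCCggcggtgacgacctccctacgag

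Rps27l (chr9:66946056-66946115, plus strand): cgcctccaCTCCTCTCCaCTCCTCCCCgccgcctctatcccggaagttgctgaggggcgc

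Rpl39 (chrX:37085193-37085252, minus strand): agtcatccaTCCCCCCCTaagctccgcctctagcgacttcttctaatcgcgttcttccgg

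Rpl39l (chr16:10170198-10170257, plus strand): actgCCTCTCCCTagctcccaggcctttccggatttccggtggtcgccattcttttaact

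Rpl22 (chr4:152325696-152325755, plus strand): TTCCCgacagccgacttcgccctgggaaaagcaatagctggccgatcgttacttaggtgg

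Rpl22l1 (chr3:28805478-28805537, plus strand): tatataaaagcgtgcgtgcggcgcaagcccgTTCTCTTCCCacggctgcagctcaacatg

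Rpl7a (chr2:26910777-26910836, plus strand): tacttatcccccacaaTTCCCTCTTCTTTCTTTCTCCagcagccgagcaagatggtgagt

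The Rpl7a window holds a run of 21 pyrimidines that begins 14 bases before the annotated start, and the Rps27 window a run of 9 that begins 2 bases before it. In Rpl39 and Rpl39l the longest run, also of 9 bases, begins 21 and 26 bases before the start, and Rps27l has 2 runs of 9, beginning 22 and 12 bases before it. The Rpl22 window has none longer than 5, whereas that of Rpl22l1 has a run of 10 starting at position 1. Annotated starts may be off, since the RefSeq start lay 0 to 180 bases from the gene's 5′ end in the deposited table for these 7 genes, 180 of them for Rpl39. Promoter windows were found for 63 of the 83 genes. A run of at least 8 pyrimidines lay within 30 bases of the start in 32 of the 63 (50.8%), against 21.97% of 16615 protein-coding promoters. In the window from 250 bases before to 50 after the start, read on both strands, the ETS-type motif CCGGAAG was present in 24 of the 63 (38.1%, 12.3% of all), the YY1-type motif AAGATGGCG in 4 (6.35%, 2.02% of all) and TATAAA in 6 (9.52%, 12.9% of all). The letters AAG end the first motif and begin the second, so the same bases can count for both. A match is a description of the window only.

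As a group the ribosomal protein genes made up several times less of the RNA after CD45 RIT than in any other library. Their summed share of all counts was 3.09, 4.81, 3.54 and 3.78% in untreated replicates 1 to 4, which is 3.80 ± 0.727% (SD, n = 4). It was 3.54, 3.04, 3.96, 2.79 and 2.33% in TBI replicates 1, 3, 4, 5 and 6 (3.13 ± 0.637%, n = 5), and 2.31, 2.94 and 2.58% in IgG RIT (2.61 ± 0.318%, n = 3). In CD45 RIT it was 0.610 and 0.775% (0.692 ± 0.117%, n = 2). Both CD45 RIT values lay below the lowest of the other 12 libraries, the TBI values overlapped those of untreated libraries, and all 3 IgG RIT libraries lay below all 4 untreated ones. The mean of CD45 RIT was 5.50-fold below untreated, 4.53-fold below TBI and 3.77-fold below IgG RIT. Because haemoglobin fills part of some libraries, the share was also taken without haemoglobin and mitochondrially encoded counts. It then was 4.94-fold lower in CD45 RIT than in untreated, and IgG RIT (2.66 to 3.39%) overlapped untreated (3.14 to 4.88%).

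**Figure D1:**
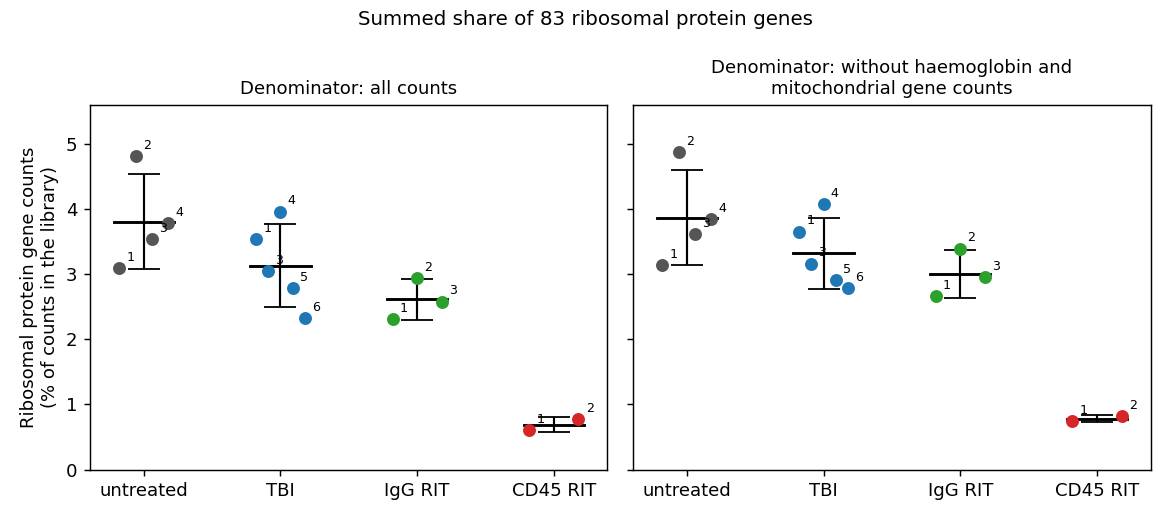
Summed share of the 83 ribosomal protein genes in each library, in percent of all counts (left) and of counts without haemoglobin and mitochondrial genes (right). Each point is a library with its replicate number, and bars give the mean ± SD. The CD45 RIT libraries, at 0.610 and 0.775% of all counts, sit below every other library, and IgG RIT overlaps untreated only in the right panel.

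Relative to 60S genes, 40S genes took fewer counts in both CD45 RIT libraries than elsewhere. Counts on 40S genes per count on 60S genes were 0.785 to 0.824 in untreated, 0.788 to 0.872 in TBI and 0.824 to 0.862 in IgG RIT, but 0.741 and 0.648 in CD45 RIT. The 60S gene Rpl41 alone made up 4.37% of the set's counts in CD45 RIT replicate 1. It made up 1.81% in replicate 2 and 1.65 to 1.80% in untreated. The low ratio of replicate 1 thus rests in part on 1 gene, and the ratio without Rpl41 was not taken. Stalk genes took 0.196 to 0.307% of counts in untreated libraries and 0.0404 and 0.0414% in CD45 RIT.

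Gene by gene, the fall after CD45 RIT covered nearly all of the ribosome. Of the 82 genes with enough counts to test (Rpl10l was not), 79 were lower and 1, Rpl39l, was higher than in untreated libraries (edgeR quasi-likelihood test, adjusted p under 0.05). Over all 21509 genes tested, 18.6% were lower and 14.5% higher. The lower genes were all 43 of the 60S genes, all 30 of the 40S genes, all 3 stalk genes and 3 of the 6 tested paralogs. The median log2 fold change was -1.83 for 60S genes, -1.94 for 40S genes and -1.93 for stalk genes, and -1.87 over all 82, against -0.37 over all genes tested. Compared with IgG RIT, 74 were lower (17.5% of all genes) and 2, Rpl39l and Rpl3l, were higher (20.2% of all genes), with a median of -1.72 against -0.13. Compared with TBI, 77 were lower (19.0% of all genes) and 1, Rpl39l, was higher (19.6% of all genes), with a median of -1.64 against -0.39. These 3 comparisons share the CD45 RIT libraries. The distance from the rest of the genes rests on CD45 RIT replicate 1. Without it the medians were -1.74 for the members and -1.63 over all genes against untreated, -1.66 and -1.08 against IgG RIT, and -1.58 and -1.51 against TBI. Of the 83 members then tested, 77, 74 and 74 were lower, against 30.9%, 29.7% and 30.8% of 23625 genes tested. Without replicate 2 the medians were -1.93 and -0.55, -2.03 and -0.36, and -1.83 and -0.60. The members' own fall was thus present with either library, but with replicate 2 alone most of the gap to other genes was absent. Both CD45 RIT libraries lay below all other 12 libraries for 78 of the 82 genes, as they did for 17.5% of all genes tested, and the exceptions were Rpl3l, Rps27l, Rpl10a and Rpl39l.

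The size of this fall depends on the scaling of libraries, since TMM factors take up part of any change shared by most genes. Without scaling factors the median over all genes moved from -0.37 to -1.08 and that of the ribosomal protein genes from -1.87 to -2.55, and with RLE factors they were -0.13 and -1.58. The gap between the medians was -1.50, -1.47 and -1.45 under TMM, no factors and RLE with both CD45 RIT libraries, and -0.11 under TMM without replicate 1. That last fit tested 23625 genes. Over the 21504 of them also tested with both libraries, its medians were -1.48 for all genes and -1.75 for the members. Of all genes called in CD45 RIT against untreated, 43.8% were higher with TMM and 22.7% without factors. Of those called against TBI, 50.9% and 33.6% were higher.

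**Figure D2:**
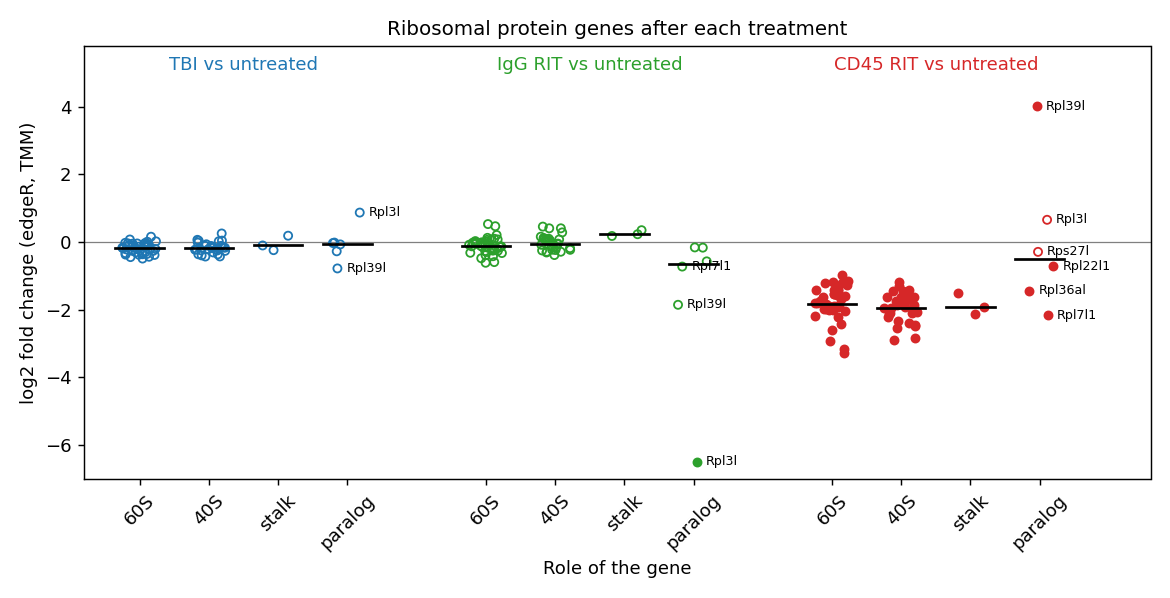
Log2 fold change of each tested ribosomal protein gene against untreated (edgeR, TMM), by treatment and role; filled points have an adjusted p under 0.05 and lines are medians. After CD45 RIT the 60S, 40S and stalk genes lie below 0 with medians of -1.83, -1.94 and -1.93, while the paralogs spread from -2.16 to 4.02; the value of Rpl3l in IgG RIT rests on a total of 1 count there.

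The genes with the deepest falls belonged to both subunits. Rpl13a (chr7:45125558-45128761), a 60S gene often used as a reference in quantitative PCR, had 26.3, 40.3, 23.3 and 27.6 CPM in untreated libraries and 4.63 and 1.44 CPM in CD45 RIT. It fell by 3.27 ± 0.55 on the log2 scale (SE; edgeR, adjusted p = 9.1e-04). Rpl7a (chr2:26910764-26913318), also of the 60S subunit, had 173, 310.4, 220.3 and 259 CPM in untreated libraries and 40.2 and 13.2 CPM in CD45 RIT, with a log2 fold change of -3.17 ± 0.45 (edgeR, adjusted p = 3.1e-04). In both genes replicate 2 was the lower of the CD45 RIT libraries by about a factor of 3, and no CD45 RIT library overlapped another group. Without CD45 RIT replicate 1 the log2 fold changes were -4.35 for Rpl13a and -4.20 for Rpl7a, and without replicate 2 they were -2.70 and -2.61.

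Rpl27, of the 60S subunit, had 223 to 335 CPM in untreated libraries and 56.2 and 18.7 CPM in CD45 RIT, a log2 fold change of -2.92 ± 0.42 (edgeR, adjusted p = 3.2e-04). Rps4x (chrX:102184941-102189394), the X-linked small-subunit gene, was more even between the CD45 RIT replicates. It had 345, 567.9, 385 and 439 CPM in untreated libraries and 66.6 and 49.2 CPM in CD45 RIT (log2 fold change -2.91 ± 0.29; edgeR, adjusted p = 2.6e-05). It had 321 to 549 CPM in TBI and 412 to 494 in IgG RIT, so that CD45 RIT overlapped no other group. Its log2 fold change was -2.95 ± 0.30 against IgG RIT (edgeR, adjusted p = 2.3e-05) and -2.77 ± 0.29 against TBI (edgeR, adjusted p = 1.5e-05).

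Rpsa, which also gives rise to a laminin-binding protein at the cell surface, had 555 to 945.5 CPM in untreated libraries, 901 to 1120.4 in IgG RIT and 148 and 131 in CD45 RIT. Its log2 fold change was -2.44 ± 0.27 against untreated (edgeR, adjusted p = 5.0e-05) and -2.85 ± 0.28 against IgG RIT (edgeR, adjusted p = 2.0e-05). Rps19, the gene most often mutated in Diamond-Blackfan anaemia, had 662 to 1045 CPM in untreated libraries and 177 and 154 in CD45 RIT, a log2 fold change of -2.33 ± 0.23 (edgeR, adjusted p = 2.4e-05).

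Among the large-subunit genes, Rpl5 and Rpl11 form with 5S rRNA the particle that can bind Mdm2 and so stabilise p53. Rpl5 had 386 to 559 CPM in untreated libraries, 304 to 321 in IgG RIT and 101 and 141 in CD45 RIT, and fell by 1.95 ± 0.30 on the log2 scale (CD45 RIT against untreated; edgeR, adjusted p = 4.8e-04). Its 3 IgG RIT libraries lay below all 4 untreated ones, though the log2 fold change of -0.59 ± 0.24 did not pass (edgeR, adjusted p = 0.11). Rpl11 had 176 to 272 CPM in untreated libraries and 51.6 and 76.8 in CD45 RIT (log2 fold change -1.80 ± 0.28; edgeR, adjusted p = 5.9e-04). The stalk genes recruit elongation factors to the ribosome. Rplp0, its base, had 981 to 1508 CPM in untreated libraries, 1413 to 1521 in IgG RIT and 340.5 and 322 in CD45 RIT (log2 fold change against untreated -1.93 ± 0.24; edgeR, adjusted p = 1.0e-04). Rplp1 and Rplp2, the stalk's flexible dimers, had log2 fold changes of -1.51 ± 0.24 and -2.13 ± 0.26 (edgeR, adjusted p = 6.2e-04 and 9.5e-05). The smallest fall among the 60S genes was that of Rpl41, which codes for a very short peptide: 437 to 686 CPM in untreated, 718 to 859 in IgG RIT, and 379 and 181 in CD45 RIT (log2 fold change -0.97 ± 0.31; edgeR, adjusted p = 0.032).

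**Figure D3:**
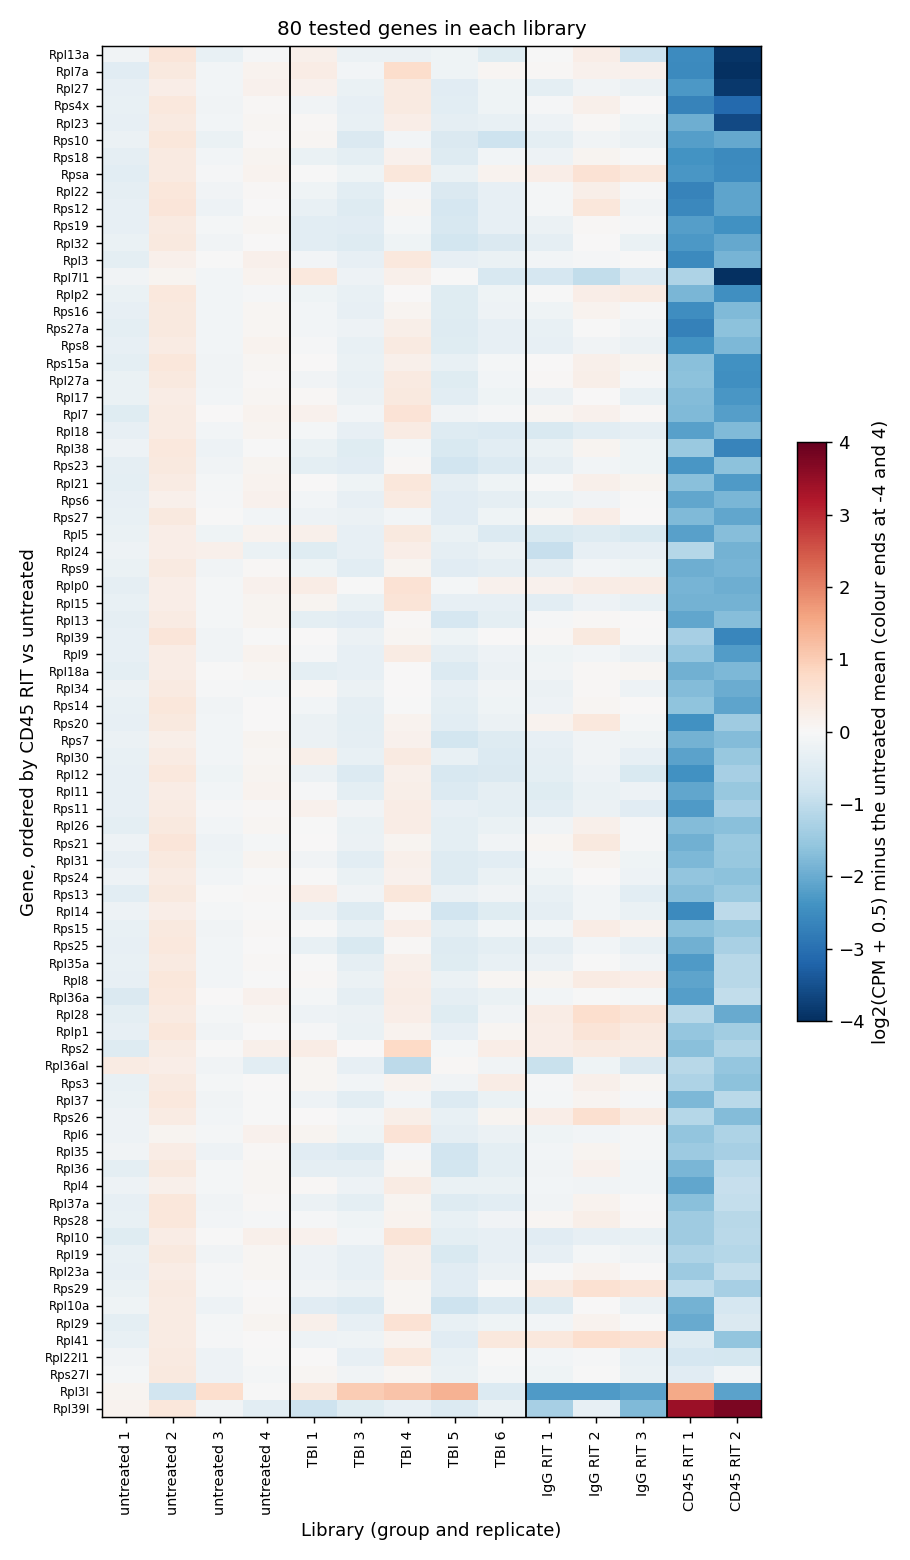
The levels of 80 tested genes (rows, ordered by their change in CD45 RIT) in each library (columns), as log2(CPM + 0.5) minus the mean of the untreated libraries; blue is lower, red higher. The columns of both CD45 RIT libraries are blue for nearly all rows, with Rps27l near 0 and Rpl39l red.

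Some of the paralogs departed from this pattern, while 3 of the 6 tested were called lower in CD45 RIT than in untreated. Rpl39l (chr16:10170226-10174911), a second gene for the exit-tunnel protein Rpl39 and best known from male germ cells, had few counts outside CD45 RIT. It had 53, 61, 31 and 22 counts in untreated libraries, 13 to 21 in TBI, and 3, 17 and 0 in IgG RIT, but 294 and 474 in CD45 RIT. In CPM this was 0.762 to 1.83 in untreated and 17.9 and 22.8 in CD45 RIT, and the groups did not overlap. It rose 16.2-fold against untreated (log2 fold change 4.02 ± 0.88; edgeR, adjusted p = 0.0049) and 27.8-fold against TBI (log2 fold change 4.80 ± 0.84; edgeR, adjusted p = 8.1e-04). Against IgG RIT the log2 fold change was 5.87 ± 1.08 (edgeR, adjusted p = 0.0013), with 1 of the IgG RIT libraries at 0 counts, and without IgG RIT replicate 2 it was 7.83. Rpl39 itself had 129 to 229.5 CPM in untreated libraries and 63.9 and 26.0 in CD45 RIT, a log2 fold change of -1.89 ± 0.35 (edgeR, adjusted p = 0.0016). Counts on Rpl39l per count on Rpl39 thus were 0.0047 to 0.011 in untreated, at most 0.0056 in TBI and at most 0.0039 in IgG RIT, against 0.281 and 0.878 in CD45 RIT. Against untreated the log2 fold change was 4.30 with RLE factors and 3.32 without factors, both called. With the replicate number as a block it was no longer called against untreated (3.54; edgeR, adjusted p = 0.075) or TBI (3.95; edgeR, adjusted p = 0.091).

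Rps27l (chr9:66946086-66949516), a target of p53 and the second gene for Rps27, was the 1 abundant paralog whose change did not pass. It had 263, 363, 241 and 264 CPM in untreated libraries, 232 to 298 in TBI, 230.1 to 276 in IgG RIT, and 202 and 260.4 in CD45 RIT, and the groups overlapped. Its log2 fold change of -0.29 ± 0.20 against untreated did not pass (edgeR, adjusted p = 0.27). With RLE factors the value was nearly 0 and again did not pass, and without scaling factors it was -0.98 and passed. Rps27 had 175 to 281 CPM in untreated libraries and 62.2 and 50.2 in CD45 RIT, a log2 fold change of -1.95 ± 0.22 (edgeR, adjusted p = 6.0e-05). Counts on Rps27l per count on Rps27 were 1.31 ± 0.147 in untreated (SD, n = 4), 1.48 ± 0.0871 in TBI (n = 5), 1.08 ± 0.0225 in IgG RIT (n = 3), and 3.25 and 5.18 in CD45 RIT. Both CD45 RIT values exceeded the highest of the other 12 libraries, 1.61. All 3 IgG RIT values, 1.07 to 1.11, lay below the lowest of the other groups, 1.14.

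Rpl22l1 (chr3:28805436-28807424), which can stand in for Rpl22, fell less than its parent. It had 66.3, 94.5, 63.6 and 71.7 CPM in untreated libraries and 45.6 and 44.5 in CD45 RIT, a log2 fold change of -0.72 ± 0.26 that just passed (edgeR, adjusted p = 0.049). That call ended with RLE factors and with DESeq2 (-0.44 in both) and when any single untreated or CD45 RIT library was left out (-0.58 to -0.78). Rpl22 had 111 to 195 CPM in untreated libraries and 21.95 and 32.7 in CD45 RIT (log2 fold change -2.41 ± 0.29; edgeR, adjusted p = 8.3e-05). Counts on Rpl22l1 per count on Rpl22 were 0.485 to 0.599 in untreated, 0.550 to 0.703 in TBI, 0.426 to 0.505 in IgG RIT, and 2.08 and 1.36 in CD45 RIT. In each of these 3 pairs both CD45 RIT ratios were above those of every other library.

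**Figure D4:**
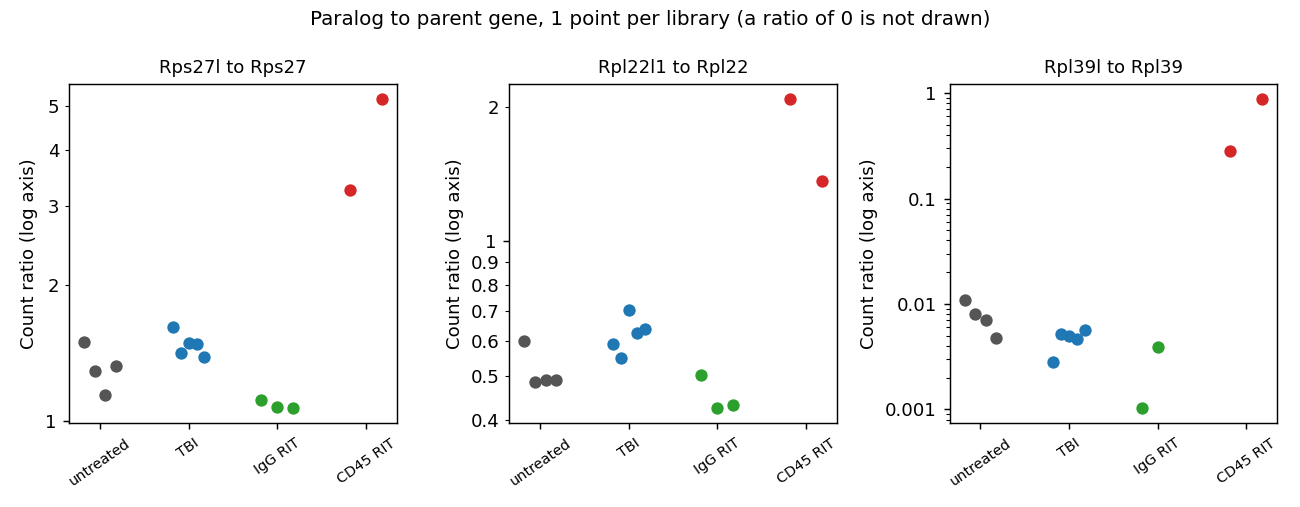
Counts on a paralog per count on its parent gene in each library, on log axes. For Rps27l, Rpl22l1 and Rpl39l both CD45 RIT libraries lie above the other 12 (3.25 and 5.18, 2.08 and 1.36, 0.281 and 0.878). Relative to the summed ribosomal protein gene count, both did so for 33.7% of all genes tested. The IgG RIT library with 0 counts of Rpl39l is not drawn.

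The remaining paralogs were uneven between replicates or low. Rpl7l1 had 183 to 225.5 CPM in untreated libraries and 102 to 140.1 in IgG RIT, but 85.3 and 5.73 in the CD45 RIT replicates, and its log2 fold change of -2.16 ± 0.73 (edgeR, adjusted p = 0.038) lost its call when any single untreated library was left out (-2.11 to -2.21). Against IgG RIT its log2 fold change was -1.44 (edgeR, adjusted p = 0.13), and without CD45 RIT replicate 1 it was -4.43 and passed. Its parent by name, Rpl7, had 309.6 to 538 CPM in untreated libraries and 126 and 92.7 in CD45 RIT (4.01-fold lower; edgeR, adjusted p = 2.1e-04). Rpl36al had 8.98 to 15.5 CPM in untreated libraries and 5.37 and 3.897 in CD45 RIT (log2 fold change -1.44 ± 0.47; edgeR, adjusted p = 0.034), a call that ended without untreated replicate 1, 2 or 3 or CD45 RIT replicate 2 (-1.27 to -1.50), and with RLE factors (-1.19). Its parent Rpl36a had 100.1 to 201 CPM in untreated libraries and 31.95 and 75.2 in CD45 RIT, a log2 fold change of -1.53 ± 0.36 (edgeR, adjusted p = 0.0071). The parent Rpl10 had 260.3 to 455 CPM in untreated libraries and 137 and 172 in CD45 RIT, and fell by 1.28 ± 0.29 on the log2 scale against untreated (edgeR, adjusted p = 0.0058). Its fall against IgG RIT (-0.89; edgeR, adjusted p = 0.033) lost its call when any single IgG RIT library (-0.87 to -0.93) or CD45 RIT replicate 1 (-0.74) was left out. Rpl10l, a copy known from the testis, had 0 or 1 counts in untreated and TBI libraries, 0, 0 and 2 in IgG RIT, and 0 and 14 in CD45 RIT.

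Rpl3l (chr17:24727820-24736143), the form of Rpl3 found in striated muscle, was nearly absent from IgG RIT and from CD45 RIT replicate 2. It had 81, 31, 99 and 54 counts in untreated libraries and 78, 126, 100, 170 and 16 in TBI, against 0, 0 and 1 in IgG RIT. The ratio of pooled counts per scaled library size, untreated over IgG RIT, was 115 (exact 95% interval 20.4 to 4540, counting error only), and TBI over IgG RIT it was 227 (40.6 to 8992), a comparison in which edgeR did not call Rpl3l (adjusted p = 0.066). Rpl3l was called lower in IgG RIT than in untreated (edgeR, adjusted p = 0.016), with a log2 fold change of -6.50. The call ended without IgG RIT replicate 1 or 2, at fold changes of -6.07 and -6.00. CD45 RIT had 106 counts in replicate 1 and 1 in replicate 2, so its log2 fold change against untreated, 0.66 ± 1.14 (edgeR, adjusted p = 0.67), has no common value; it was -5.29 without replicate 1. The call of Rpl3l as higher in CD45 RIT than in IgG RIT (edgeR, adjusted p = 0.0050) ended without CD45 RIT replicate 1 (log2 fold change 1.22). Rpl3 had 628 to 941 CPM in untreated libraries, 755.5 to 803 in IgG RIT and 139 and 227 in CD45 RIT (log2 fold change against untreated -2.18 ± 0.29; edgeR, adjusted p = 1.9e-04).

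To separate a change within the set from the fall of the whole, each gene was also read relative to the summed count of the 83 genes. On this scale a gene that falls with the rest is at 0, and other genes shift upward as the sum falls. In CD45 RIT against untreated, 10 members were higher and 12 lower (edgeR, adjusted p under 0.05), against 42.6% and 7.75% of all genes tested. The higher were Rpl39l, Rps27l, Rpl22l1, Rpl41, Rps29, Rpl19, Rpl23a, Rpl10, Rps28 and Rpl37a. The lower included Rpl13a, Rpl7a, Rps4x, Rpl27, Rps18, Rpsa, Rpl22, Rps12, Rps19 and Rpl32, and 7 of the 12 belong to the small subunit. Not all of these genes stood apart in both CD45 RIT libraries. Rpl41 made up 4.37 and 1.81% of the sum there, against 1.65 to 1.80% in untreated and 2.48 to 2.60% in IgG RIT. Rps29 made up 2.31 and 1.64%, against 1.79 to 1.83% in IgG RIT. Rpl13a, at 0.0535 and 0.0144%, overlapped IgG RIT replicate 3 (0.0517%). No stalk gene passed here, while against TBI Rplp0 was lower (-0.49 ± 0.17; edgeR, adjusted p = 0.027). Rps27l stood at 1.46 ± 0.18 on the log2 scale (edgeR, adjusted p = 3.1e-05), Rpl22l1 at 1.05 ± 0.21 (edgeR, adjusted p = 0.0012) and Rpl39l at 5.76 ± 0.92 (edgeR, adjusted p = 2.5e-04). At the other end Rpl7a stood at -1.34 ± 0.37 (edgeR, adjusted p = 0.0088) and Rps4x at -1.11 ± 0.20 (edgeR, adjusted p = 5.4e-04).

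As shares of the summed count, Rps4x made up 1.37, 1.43, 1.31 and 1.33% in untreated libraries, 1.30 to 1.48% in TBI, 1.40 to 1.47% in IgG RIT, and 0.768 and 0.492% in CD45 RIT. Rps27l made up 0.803 to 1.05% in untreated, 0.806 to 0.997% in TBI, 0.744 to 0.863% in IgG RIT, and 2.33 and 2.61% in CD45 RIT. Neither gene's CD45 RIT values overlapped another group. Both CD45 RIT libraries lay outside the range of the other 12 below for 14 members (5.55% of all genes tested) and above for 9 (33.7% of all genes). Against IgG RIT 8 members were higher and 8 lower relative to the sum (42.7% and 5.72% of all genes), and against TBI 13 and 9 (43.2% and 7.15% of all genes). Rps4x, Rpl7a, Rpsa, Rps18 and Rpl22 were among those lower, and Rpl39l, Rps27l, Rpl22l1, Rpl19 and Rpl23a those higher, in all 3 comparisons, which share the CD45 RIT libraries.

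**Figure D5:**
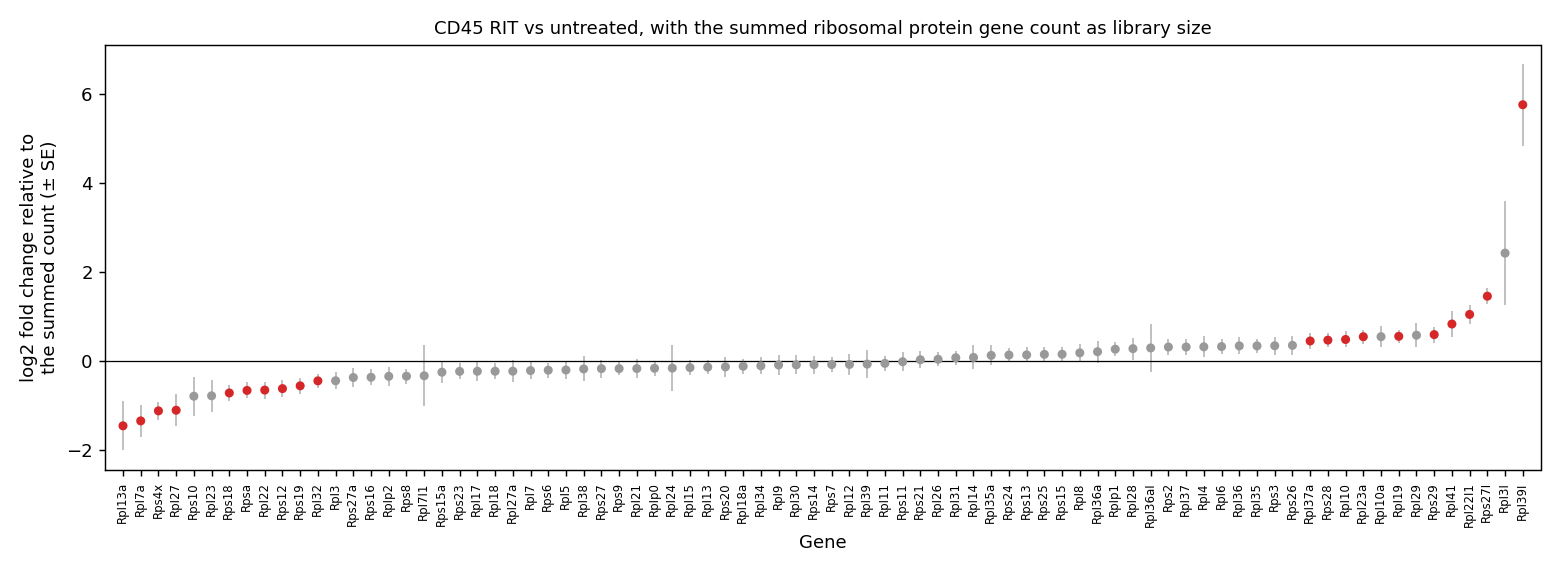
Log2 fold change of 80 tested genes in CD45 RIT against untreated with the summed ribosomal protein gene count as library size (points, bars are SE); red points have an adjusted p under 0.05. Rpl13a, Rpl7a, Rps4x and Rpl27 lie lowest, at -1.45 to -1.10, and Rpl22l1, Rps27l and Rpl39l are the highest called genes, at 1.05, 1.46 and 5.76.

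The make-up of the set was tight in all groups but CD45 RIT, whose libraries also had the fewest genes detected. The part that this plays in the spread was not tested. The median absolute log2 difference in a gene's share of the sum between 2 replicates, over the 76 genes that are not paralogs, was 0.0778 in untreated, 0.103 in TBI and 0.0749 in IgG RIT, and 0.493 between the CD45 RIT replicates. The most even gene over the 12 other libraries was Rps16, with an SD of 0.0471 on the log2 scale, and the least even was Rpl24, with 0.361. Between the CD45 RIT replicates the share in replicate 2 was lower for Rpl13a (-1.89 on the log2 scale), Rpl23 (-1.88), Rpl7a (-1.82) and Rpl27 (-1.79), and higher for Rpl14 (1.29) and Rpl29 (1.25). Rpl23 made up 0.932 to 1.11% of the sum in the 12 other libraries and 0.948% in CD45 RIT replicate 1, against 0.258% in replicate 2.

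Levels per kilobase of the deposited gene length differed widely among genes whose products enter the ribosome in nearly equal number. In untreated libraries the 76 non-paralog genes ranged from 3.06 to 779 CPM per kb with a median of 184. The order depends on the deposited length as well as on the counts. That length ran from 383 bases for Rpl36 to 6270 for Rps15a, and whether it matches the mRNA present was not tested. Rplp1 (779 ± 193, SD, n = 4), Rplp0 (762 ± 141) and Rpl36 (743 ± 171) were the highest, and Rps10 (3.06 ± 0.791), Rpl24 (3.25 ± 0.702) and Rpl13a (13.9 ± 3.56) the lowest. Ribosomal protein genes have many processed copies in the genome, and how reads shared between copies were assigned is not given in the sources used here, so levels of single genes are uncertain. The table holds 309 rows named as ribosomal protein pseudogenes, and 62 of the 83 genes have at least 1 such row, 4 for Rps10, 1 for Rpl13a, 14 for Rpl7a and none for Rpl24 or Rps27l. Pseudogene rows received 3.20 to 7.37 counts per 100 counts on the genes themselves. With these rows added the summed share was 4.02% in untreated and 0.738% in CD45 RIT.

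TBI gave no called change in the set. No member was called by edgeR (4.31% of all genes were), 3 had an unadjusted p under 0.05 (Rpl32, Rpl35 and Rps19; 18.2% of all genes did) and DESeq2 called 0 (11.6% of all genes). Without TBI replicate 4, 14 had an unadjusted p under 0.05 (16.6% of all genes). The median log2 fold change was -0.16, equal to that over all genes tested. Rps19 had 527 to 773 CPM in TBI and a log2 fold change of -0.40 ± 0.16 (edgeR, adjusted p = 0.20).

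After IgG RIT, Rpl3l was the single member called (16.4% of all genes were called), with 3 at an unadjusted p under 0.05 (33.0% of all genes). DESeq2 called 7, of which 6 were higher and 1 lower (27.6% of all genes were called). The median log2 fold change was -0.09 under TMM, 0.13 with RLE factors and -0.60 without factors, so its sign follows the scaling. Without factors 20 members were called, all of them lower (23.5% of all genes were called). The median over all genes was then -0.94 in place of -0.42. Of all genes called, 34.96% were higher with TMM, 46.7% with RLE and 14.5% without factors. Against TBI, IgG RIT had 0 members called by edgeR (0.242% of all genes were), 8 at an unadjusted p under 0.05 (18.5% of all genes) and 3 called by DESeq2 (9.69% of all genes). The median there was 0.08 under TMM, 0.16 with RLE and -0.31 without factors, and 28.8% and 11.3% of all genes called were higher with TMM and without factors. Without TBI replicate 6, the TBI library richest in haemoglobin, 2 members were called (9.44% of all genes).

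Fau and Rps3a1 also encode ribosomal proteins but bear symbols that the rule does not match. Fau, made as a fusion with a ubiquitin-like protein, had 190 to 284 CPM in untreated libraries and 74.5 and 86.1 in CD45 RIT, a log2 fold change of -1.52 ± 0.21 (edgeR, adjusted p = 2.8e-04). Rps3a1 had 491.5 to 761 CPM and 90.7 and 155 CPM in the same groups, and fell by 2.37 ± 0.30 on the log2 scale (edgeR, adjusted p = 1.2e-04).

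Other genes of protein synthesis were read from fixed lists. Beside them stand the 18.6% of all genes that were lower and 14.5% that were higher in CD45 RIT than in untreated. The median over all genes was -0.37. Without CD45 RIT replicate 1 that median was -1.63, and the lists were not read without it. They were also read under TMM only. The TMM factors were 1.15 to 1.23 in untreated, 0.798 to 0.876 in IgG RIT and 0.704 and 0.776 in CD45 RIT. These factors raise the levels of IgG RIT and CD45 RIT relative to untreated, so the size of each rise or fall depends on them. Of 30 translation factors, 18 were lower and 0 higher in CD45 RIT than in untreated, with a median log2 fold change of -0.82. Eef1a1, the elongation factor that delivers aminoacyl-tRNA and whose mRNA also carries a TOP motif, had 1168 to 1764 CPM in untreated libraries and 306 and 416 in CD45 RIT (log2 fold change -2.06 ± 0.26; edgeR, adjusted p = 1.3e-04). Eif4e, which binds the mRNA cap, had 176 to 205 CPM in untreated libraries and 48.9 and 33.3 in CD45 RIT (log2 fold change -2.23 ± 0.29; edgeR, adjusted p = 1.7e-04). Of 35 genes of rRNA synthesis and ribosome assembly, 18 were lower and 0 higher in CD45 RIT than in untreated (median -1.80). In IgG RIT 12 of them were lower and 2 higher than in untreated (median -1.21), against 10.7% and 5.75% of all genes and a median of -0.42, whereas the ribosomal protein genes had a median of -0.09 there.

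Polr1a, the largest subunit of RNA polymerase I, had 25.4 to 44.3 CPM in untreated libraries, 10.7 to 19.0 in IgG RIT, and 0.061 and 0.096 CPM in CD45 RIT, 3 counts in all. The ratio of pooled rates, untreated over CD45 RIT, was 410 (exact 95% interval 140 to 1988, counting error only; edgeR, adjusted p = 6.2e-06). Under TMM, Ubtf, which opens rDNA for transcription, rose in IgG RIT (log2 fold change 0.68 ± 0.16; edgeR, adjusted p = 0.013) and fell in CD45 RIT (-2.20 ± 0.20; edgeR, adjusted p = 1.3e-05). The rise of Ubtf was not read without scaling factors. Its levels were 131 to 180 CPM in untreated, 232 to 265 in IgG RIT and 33.3 and 32.4 in CD45 RIT.

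Of 13 tested genes of ribosome rescue and turnover, 4 were higher and 2 lower in CD45 RIT than in untreated (14.5% and 18.6% of all genes). Zfp598, a sensor of collided ribosomes, had 17.2 to 21.1 CPM in untreated libraries and 41.3 and 32.3 in CD45 RIT (log2 fold change 0.94 ± 0.30; edgeR, adjusted p = 0.028). Its rise, too, was read under TMM only. Nemf, which marks stalled nascent chains, had 76.8 to 115 CPM in untreated libraries and 65.002 and 46.6 in CD45 RIT (log2 fold change -0.77 ± 0.27; edgeR, adjusted p = 0.043). Of 18 genes that control growth and ribosome synthesis, 3 were higher and 6 lower (14.5% and 18.6% of all genes). Rptor, the mTORC1 scaffold, had 25.6 to 63.9 CPM in untreated libraries and 0.427 and 0.192 in CD45 RIT (log2 fold change -7.01 ± 0.88; edgeR, adjusted p = 1.3e-04). Ddit4, an inhibitor of mTORC1, had 2.50 to 6.42 CPM in untreated libraries and 10.1 and 19.8 in CD45 RIT (log2 fold change 1.85 ± 0.52; edgeR, adjusted p = 0.017).

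The ribosome of mitochondria has its own nuclear-encoded proteins, and 77 of their genes were tested. In CD45 RIT 31 were lower and 2 higher than in untreated, with a median log2 fold change of -0.74 against -1.87 for the cytosolic set. Mrpl9 had 43.7 to 56.6 CPM in untreated libraries and 6.40 and 0 in CD45 RIT (log2 fold change -3.99 ± 1.19; edgeR, adjusted p = 0.023). Mrps6 went the other way, from 15.8 to 27.4 CPM in untreated libraries to 242 and 184 in CD45 RIT (log2 fold change 3.34 ± 0.37; edgeR, adjusted p = 5.0e-05). After TBI none of the 77 was called by edgeR (4.31% of all genes were), and 4 had an unadjusted p under 0.05 (18.2% of all genes did). After IgG RIT 7 were lower than in untreated (10.7% of all genes were) and none was higher (5.75% of all genes were).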

How the data were processed

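RNA was amplified with the SMART-Seq v4 kit and tagmented with Nextera XT, per the labels' protocols, without molecular identifiers, so counts are not independent molecules and intervals cover counting error only. The authors deposited whole-number counts per gene with gene lengths. The submitters' processing notes name STAR 2.7.7a, FastQC 0.11.9, edgeR 3.36.0 and the build hg38, with no roles; all 83 coordinates match GENCODE M21, so GRCm38 is used. Strand, and how shared reads were assigned, are not given in the sources used here.

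Each column was matched to a sample through its name in the labels, leaving 0 columns unassigned. In R 4.3.3, filterByExpr (minimum count 10, minimum total count 15) kept 21509 genes. edgeR 4.0.16 (TMM, robust quasi-likelihood fit of all 14 libraries, 1 coefficient per group) tested 6 contrasts with Benjamini-Hochberg adjustment over all genes tested and a threshold of 0.05. The script was tested on simulated data. CPM use TMM-scaled library sizes, and summed shares use all counts.

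Genes named are, in each contrast, the 3 called members with the largest rise and fall at a mean log2 CPM of at least 3, the paralogs with their parents, Rpl5, Rpl11, the stalk genes, Rpsa, Rps19, genes outside the rule (Fau, Rps3a1), and in each other list the 2 largest called changes in CD45 RIT against IgG RIT. Some genes that this rule or a list takes in are not reported here by name, and figures that label genes leave them out; counts and medians include them. Genes at the ends of a range were named after their values were seen. Members and lists were chosen with earlier results of these data known. Alternatives were RLE or no factors, the members' sum as library size, no filter, DESeq2 1.42.0, only the groups compared, a replicate block and leaving out each library.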

Additional observations from a re-analysis of the deposited data

Results flagged for a closer look

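Of 68 groups of 4 or 5 values examined, 2 had a library apart from its group. The groups share libraries, and how many would be flagged by chance was not tested. Counts on Rpl22l1 per count on Rpl22 were 0.599 in untreated replicate 1 and 0.485 to 0.492 in the other untreated libraries. Rpl3 had 1088 CPM in TBI replicate 4 and 651 to 757 CPM in the other TBI libraries, in the TBI library with the highest summed share of ribosomal protein genes (3.96%).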

How the results depend on the processing

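In TBI against untreated 0 members were called under every alternative run, where 38 to 3251 of all genes were. In IgG RIT against untreated 1 was called, and it was lower (16.4% of all genes were called). The count was 3 with RLE factors (2 higher, 1 lower) and 20 without factors (0 higher, 20 lower). Over all genes it was 3315 and 5061 of 21509. The members' count was 7 with DESeq2 (6 higher, 1 lower) and 10 with only the 2 groups in the fit (8 higher, 2 lower). DESeq2 called 27.6% of all genes, and the fit of only the 2 groups called 6662 of 18615. The members' count was 0 to 1 when a library was left out, with 1775 to 2564 of all genes called. In IgG RIT against TBI, where 0 were called, it was 1 without factors, 3 with DESeq2, 2 with only the 2 groups, and 0 to 2 when a library was left out. Over all genes this was 203, 2085, 850, and 2 to 2025 in the same order. Against untreated, IgG RIT and TBI, CD45 RIT had 80, 76 and 78 members called. Under the other alternatives that kept both CD45 RIT libraries these were 70 to 81, 55 to 77 and 72 to 81. Over all genes 7116, 8108 and 8308 were called, and 3995 to 9246, 2217 to 10002 and 3756 to 9963 under those alternatives. With the members' sum as library size the counts were 22, 16 and 22, and 10828, 10420 and 10820 over all genes. The summed share of IgG RIT was 3.00% without haemoglobin and mitochondrial counts.

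With the members' sum as library size the scale moves with the set, so that by construction many falls in CD45 RIT became positive log2 values, 35 of 82 members being positive against untreated. Among the genes named by the rule these were Rpl10 (0.49, 0.84 and 0.38 against untreated, IgG RIT and TBI), Rpl36a (0.22, 0.28 and 0.24), Rpl11 (0.25 against IgG RIT and 0.035 against TBI), Rpl5 (0.37 against IgG RIT), Rpl22l1 (1.05 against untreated and 0.95 against TBI), Rplp1 (0.27 against untreated and 0.21 against TBI) and Rpl36al (0.30 against untreated).

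Deviations from the group mean correlated at -0.0896 to 0.139 between same-numbered libraries of different groups, and at -0.142 to 0.158 between the others. With 2 to 5 libraries per group, such values cannot tell whether the numbers pair the libraries. With the replicate block, 0, 1 and 74 members were called in TBI, IgG RIT and CD45 RIT against untreated, 77 and 73 in CD45 RIT against IgG RIT and TBI, and 0 in IgG RIT against TBI. In the same order 38, 2063, 4062, 5098, 3756 and 69 of all 21509 genes were called. Rpl39l was no longer called with the block against untreated (3.54) or TBI (3.95), and its call against IgG RIT ended with only the 2 groups in the fit (5.82). The number of CD45 RIT libraries, 2, limits every comparison with that group, and leaving 1 out assumes that the other varies like the rest. Genes with few counts, such as Rpl3l and Rpl10l, are limited by depth.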
